A study of Drosophila melanogaster with 2 samples.

Results

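Divergent protein-coding promoters, where neighbouring genes start head to head on opposite strands, held 1057 of the 7927 peak summits of GFP-tagged Bsh in *Drosophila melanogaster* embryos, 13.3% (exact binomial 95% interval 12.6 to 14.1). A summit was a member where it lay within 500 bp of a protein-coding transcription start site (TSS) and that nearest TSS had the protein-coding TSS of another gene on the opposite strand within 1 kb upstream. The signal value of a peak was not used in this choice. Summits at 1582 lone promoters, whose nearest protein-coding TSS had no such partner, were the class compared most often, and the other 5288 summits lay farther from any protein-coding TSS. Chromatin immunoprecipitation and sequencing (ChIP-seq) had been carried out on 2 biological replicates of 1 group, whole embryos of 10 to 12 h from a transgenic line that carries GFP fused to the C-terminal end of Bsh, with an antibody against GFP. The summits are those of the authors' IDR set, named after the irreproducible discovery rate, which compares how peaks rank in both replicates. The line is the 1 line the labels name, and the labels give no number of embryos. In whole embryos, occupancy in more cells and higher occupancy per cell cannot be told apart. The depth behind each list is unknown, because the files give no read counts, and the control file shared by all lists was not analysed here.

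Bsh (brain-specific homeobox) is a homeodomain protein known for specifying neurons of the optic lobe, and homeodomains commonly bind short A/T-rich sites with a TAAT core. In the compact fly genome many genes that all cells use start head to head, so that a single nucleosome-poor stretch lies between their start sites. Such housekeeping promoters are known for sites of DREF (the DNA replication-related element, DRE), BEAF-32 and M1BP, while promoters of developmentally regulated genes more often carry GAGA sites, bound by Trl. The gene bsh itself has no divergent partner, and no IDR summit lay within 500 bp of its own TSS.

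The sequences under the strongest divergent summits are shown as examples of A/T-rich members, and they do not stand for all of them. The plus strand is given 5′ to 3′ for 61 bases centred on the summit, from the release 6 genome of RefSeq, for the 6 strongest summits whose 61 bases lay between the paired TSSs and outside annotated exons, a condition that 566 of the 1057 members met outside 1 chromosome arm that was left out. Capitals mark the longest run of A and T.
Ugalt/eIF2Bbeta, chrX:2703860-2703920: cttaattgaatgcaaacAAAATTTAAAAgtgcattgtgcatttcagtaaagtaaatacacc
Art3/mRpS10, chr3R:15229505-15229565: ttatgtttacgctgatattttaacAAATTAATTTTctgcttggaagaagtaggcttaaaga
CG5611/Mtl, chr3R:27636145-27636205: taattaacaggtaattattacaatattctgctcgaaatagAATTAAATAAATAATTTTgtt
CHMP2B/Tcs5, chr3L:5139473-5139533: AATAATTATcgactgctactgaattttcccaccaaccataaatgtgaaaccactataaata
CenG1A/mRpS23, chr2L:13835428-13835488: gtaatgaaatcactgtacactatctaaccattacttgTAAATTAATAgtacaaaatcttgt
CG13390/CG17294, chr2L:8376850-8376910: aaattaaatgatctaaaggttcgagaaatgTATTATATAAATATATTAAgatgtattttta

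The GC content of these 61 bases was 16.4% for CG13390/CG17294, 18.0% for CG5611/Mtl, 26.2% for CenG1A/mRpS23 and 31.1% for CHMP2B/Tcs5. The marked run was 19 bases long for CG13390/CG17294, 18 for CG5611/Mtl, 10 for CenG1A/mRpS23, 9 for CHMP2B/Tcs5 and 11 each for Ugalt/eIF2Bbeta and Art3/mRpS10. That of CHMP2B/Tcs5 starts at the first base shown and may be cut there, since the longest run within 50 bp of its summit was 16 bases. These 6 were taken for their signal and for lying outside exons. Over all 1057 members the GC content within 50 bp ran from 6.93% to 62.4%, and 217 of them (20.5%) had more than 40%.

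The promoter between Ugalt, which encodes a transporter of UDP-galactose into the Golgi, and eIF2Bbeta, a subunit of the exchange factor for translation initiation, held the strongest member. Its signal value, a score of the authors' peak caller on a scale that differs between lists, was 7101 in the pooled replicates, 3977 in replicate 1 and 3149 in replicate 2. It took rank 3 in the IDR set, 4 in replicate 1 and 3 in replicate 2, and it lay 38 bp upstream of Ugalt, at a GC content of 34.7% within 50 bp. The summit between the arginine methyltransferase gene Art3 and mRpS10, a protein of the small mitochondrial ribosomal subunit, had signal values of 6691 pooled, 3764 in replicate 1 and 2936 in replicate 2. It sat near the middle of the 257 bp between their TSSs, 127 bp upstream of Art3 and 130 bp upstream of mRpS10. It took rank 7 in both replicates.

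Genes of the mitochondrial ribosome flanked 4 of the 20 strongest members: beside mRpS10 these were mRpL41 with CG8079 (pooled signal 6135), mRpS23 with CenG1A (5211) and mRpL23 with CG9004 (3332). Of all 995 pairs with a summit, 37 included such a gene, and no test was made. The summit at Chro, which encodes the chromodomain protein Chromator, and Ssl1, a subunit of the general transcription factor TFIIH, had a signal of 5840 and lay on the transcribed side of Chro, 79 bp into the gene. The summit of CG5611 and Mtl, which encodes a Rac-like GTPase, reached 5709 and had the lowest GC content of these 20 within 50 bp, 17.8%, together with CG11357/CG32243. All 20 ranked within the 73 strongest peaks of each replicate. Of these 20 summits, 13 lay between the paired TSSs and 7 on the transcribed side of the nearest TSS, and their median distance upstream of the closest paired TSS was 127 bp.

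Of the 2640 divergent pairs in the Ensembl gene models, 995 held an IDR summit, 37.7% (35.8 to 39.6). A further 712 pairs held a peak of the pooled list that was not in the IDR set, and 933 held neither. A single summit was found at 935 of the 995 pairs, 2 summits at 59 and 4 at 1, the pair of CG3919 and stwl. These 4 had signals of 441, 252, 227 and 192 and ranked no higher than 2654 in the IDR set. The pair of the proton pump subunit gene Vha100-2 and the SNARE gene Vti1b has several TSSs, and its 2 summits, with signals of 2098 and 159, belonged to different TSSs of the pair.

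Genes with a divergent partner held a summit within 500 bp of their own TSS in 2030 of 5052 cases, 40.2% (38.8 to 41.5), and genes without one in 1250 of 8916, 14.0% (13.3 to 14.8). Over all 13968 protein-coding genes this share was 23.5%. The shares were 40.4% and 14.1% among the strongest 7927 peaks of replicate 1, and 40.2% and 14.7% among those of replicate 2. With the most 5′ TSS of each gene alone they were 37.0% and 11.7%. Both genes of a pair often share 1 summit, so no test was made of this difference. Counted per base that meets the rule, divergent promoters held 30.2 summits per 100 kb and lone promoters 13.3.

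The share of pairs varied between chromosome arms. Pairs with a summit made up 38.9% on 2L, 33.7% on 2R, 41.0% on 3L, 41.3% on 3R and 31.6% on X, and 3 of the 11 pairs on chromosome 4 held one. The median signal ranged from 297 on X to 371 on 2L among the large arms. The intervals of X (27.1 to 36.4) and 3R (37.5 to 45.2) did not overlap, and these differences were not tested.

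The members gathered upstream of the paired start sites. Of the 1057 summits, 843 (79.8%, 77.2 to 82.1) lay between the paired TSSs, where 28.1% of the bases that meet the rule lie, a 2.83-fold excess. A further 210 (19.9%) lay on the transcribed side, which makes up 71.7% of those bases, and 4 lay on a TSS. Measured from the closest paired TSS that lies downstream of the summit, the median distance was 119 bp and the middle 50% of summits lay between 85 and 168 bp. The 101 to 150 bp bin held 350 summits, 33.1% of members in 6.25% of the bases, a 5.30-fold excess. The excess was 3.28-fold at 51 to 100 bp, 2.49-fold at 151 to 200 bp and 1.57-fold at 1 to 50 bp, and farther out the summits were fewer than their share of bases. The distance bins here were chosen after the values were seen, and no test was made.

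**Figure D1:**
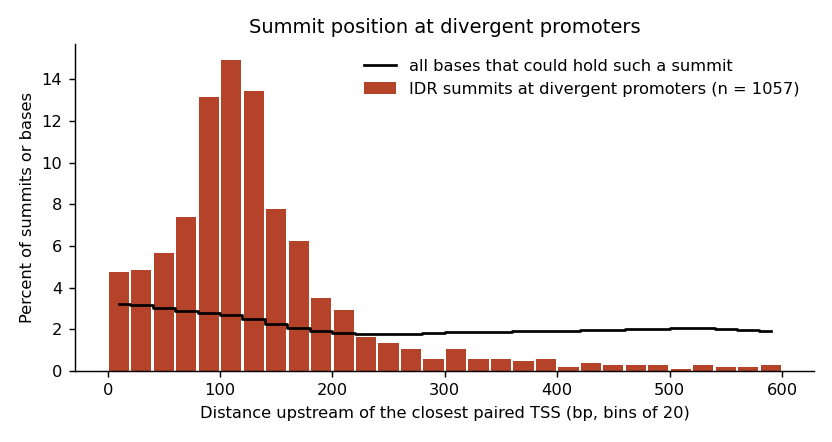
Percent of the 1057 divergent promoter summits (bars) and percent of all bases that meet the rule (black line) in bins of 20 bp, by distance in bp upstream of the closest paired TSS, shown up to 600 bp. The bars stand above the line out to about 200 bp and peak beside the median of 119 bp.

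Lone promoters had their summits upstream as often, but spread farther out. Of the divergent summits 79.8% lay upstream of their nearest TSS, and of the lone summits 80.9%. The band from 51 to 200 bp upstream of the nearest TSS held 644 of 1057 divergent summits, 60.9% (57.9 to 63.9), and 558 of 1582 lone summits, 35.3% (32.9 to 37.7). The median distance of those upstream was 108 bp at divergent and 194.5 bp at lone promoters. At a divergent promoter with TSSs close together no base can lie far upstream of both, so the geometry of the rule bears on this contrast and no test was made.

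The share of pairs with a summit was highest at medium distances between the paired TSSs. Pairs whose closest TSSs were 201 to 300 bp apart held one in 265 of 542 cases, 48.9% (44.6 to 53.2), and those 301 to 500 bp apart in 43.5% (39.7 to 47.4). The share was 31.1% (26.8 to 35.8) at 1 to 100 bp, 30.7% (25.9 to 35.8) at 101 to 200 bp and 30.8% (27.4 to 34.5) at 501 to 1000 bp. The 3 outer bins did not differ beyond their intervals, and both middle bins lay above all of them. For the summits themselves, grouped by the distance between their own nearest TSS and its partner, the median signal was 275, 308, 439, 346 and 301 in the bins taken from the shortest to the longest distance. Summits per 100 kb of eligible bases followed with 27.9, 30.1, 41.7, 33.7 and 21.9. The median GC content within 50 bp was lowest in the 201 to 300 bp bin, 26.7%, and highest in the 1 to 100 bp bin, 35.6%.

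**Figure D2:**
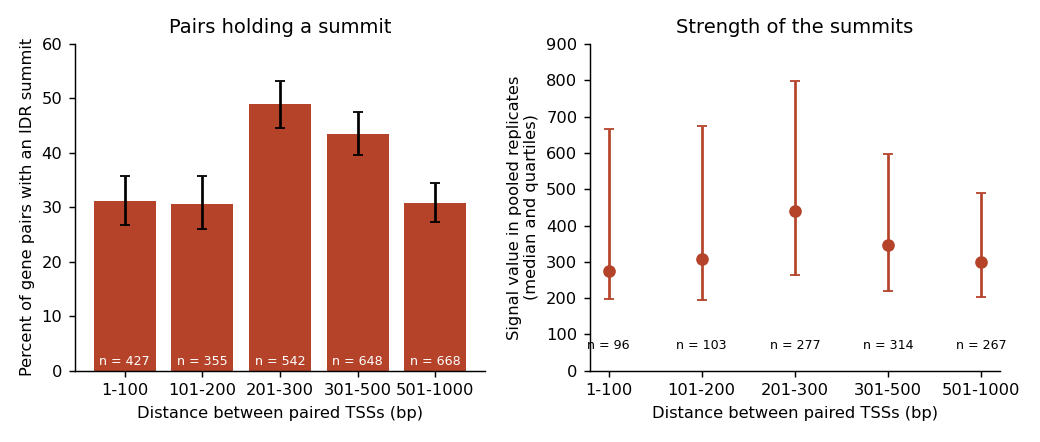
Left, percent of divergent gene pairs with an IDR summit by the distance in bp between their closest TSSs, with exact 95% binomial intervals and the number of pairs. Right, median signal value of the summits with their quartiles, by the distance between the TSSs they were assigned to, with the number of summits. Both peak at 201 to 300 bp, with 48.9% of pairs and a median signal of 439.

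In the 201 to 300 bp bin 253 of 277 summits (91.3%) lay between the TSSs, where 21.6% of its eligible bases lie. All summits of this bin had a median of 103 bp upstream of the closest paired TSS. Between TSSs that are 1 to 100 bp apart there is little room, 6.79% of the eligible bases, and 28 of 96 summits (29.2%) lay there. At the shortest distance, 2 bp between didum, which encodes a myosin V, and the replication gene dpa, the summit lay 105 bp into dpa. This summit had no overlapping peak in the list of replicate 2. At the pair of E(z), the histone methyltransferase of the Polycomb group, and Cnep1r2, with 16 bp between the TSSs, it lay 75 bp into E(z), with a signal of 1874 pooled, 1072 in replicate 1 and 801 in replicate 2. At the longest distances the 500 bp limit of the rule keeps each summit near 1 of the genes, so these positions are a description. A summit lay 87 bp upstream of hts, which encodes an adducin, where the TSS of the calpain gene CalpA is 999 bp away. Another lay 89 bp into Smg5, a gene of nonsense-mediated mRNA decay, whose partner Ance starts 984 bp away. The others lay 7 bp into Gnpat, 266 bp into CG15465 and 218 bp upstream of CG1632.

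The values at the limits of the rule are given as a description. Just inside the 500 bp limit stood summits of CG3919/stwl, Nop56/mats and Mhcl/sxe2 at 490, 480 and 471 bp, with signals of 441, 404 and 228. Just outside it stood those near Keap1, CG10383 and CG5854 at 501, 516 and 517 bp, with signals of 249.8, 463 and 1051. Just inside 1 kb, the pairs CalpA/hts, CG5112/Gnpat and CG15465/CG32767 had signals of 351, 264 and 226. Just outside it, at 1004, 1006 and 1012 bp between the TSSs, the summits near Nep1, RpS7 and CG9992 had signals of 203, 299 and 657.

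Divergent summits were slightly stronger than lone ones around the middle of the IDR set, and the sign turned among strong peaks. The median signal was 355 (quartiles 217 and 635) at divergent promoters, 322 at lone promoters and 303 elsewhere. Of the divergent summits 593 of 1057 (56.1%, 53.0 to 59.1) exceeded the median signal of all IDR peaks, and of the lone summits 806 of 1582 (50.9%, 48.5 to 53.4), a difference of 5.15 percentage points (exact two-sided Fisher test, p = 0.00969). Within the 3963 strongest peaks, against the median of those, the difference was -5.74 points (exact two-sided Fisher test, p = 0.0338). Among the strongest peaks of replicate 1 alone, without replicate 2, it was 3.63 points (exact two-sided Fisher test, p = 0.0679), and the call was lost. The divergent share of all IDR peaks was 11.8%, 11.7%, 12.3%, 14.6% and 16.3% from the weakest to the strongest quintile by signal, and the lone share was 18.9%, 19.8%, 18.0%, 18.7% and 24.4%. These tests treat each summit as a unit, and summits are not replicates of a condition.

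The IDR set was made from peaks that rank alike in both replicates, so the support of members by both lists is a description. A peak overlapped 1049 of the 1057 (99.2%, 98.5 to 99.7) by at least 1 bp in both replicate lists, 5 in that of replicate 1 alone and 3 in that of replicate 2 alone. For lone summits the count in both lists was 1570 of 1582, the same share of 99.2%. With an overlap of 50% of both peaks the share was 79.8%, and with the 7927 strongest peaks of each replicate list it was 86.4%. The replicate signals of the 1049 had a Spearman rho of 0.92, given as a description of peaks that share 1 pair of libraries. Taken on their own, the strongest 7927 peaks of replicate 1 put 1063 summits at 999 divergent pairs, and those of replicate 2 put 1051 at 985 pairs. The 882 pairs common to both are 88.3% of the pairs of replicate 1 and 89.5% of those of replicate 2.

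**Figure D3:**
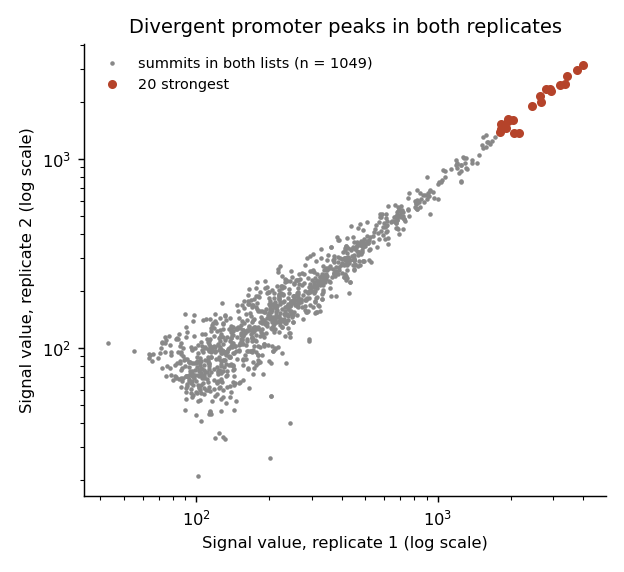
Signal value of each divergent promoter peak in replicate 1 and in replicate 2, both on log scales, for the 1049 peaks with a peak in both replicate lists. The 20 strongest by pooled signal are in red and lie along the upper end of the cloud, and the spread between replicates widens toward low values.

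The least alike ranks were found among weak peaks. The summit between ArgRS-m, a mitochondrial arginyl-tRNA synthetase gene, and CG17816 ranked 7026 in replicate 1 and 23817 in replicate 2, with a pooled signal of 177. Second to it was a weak summit of Hat1/Rpn5 with ranks of 3473 and 19510. This pair holds another summit 155 bp into Hat1, and its rank of 3473 in replicate 1 is the same, because the same replicate peak overlapped both IDR peaks. Likewise both summits of Wdr37/koko carried the replicate signals 1247 and 925, although their pooled signals were 2193 and 157. A replicate value of a weak summit beside a strong one can therefore be that of its neighbour.

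Over all protein-coding genes 5052 of 13968 (36.2%) had a divergent partner, and in the 12 groups with general cellular functions this share ran from 47.7% for translation initiation factors to 88.9% for splicing genes, with no test made. Groups were formed by gene symbol, and over all protein-coding genes 1982 of 5052 genes with a partner (39.2%) belonged to a pair with a summit. Cytoplasmic ribosomal protein genes stood highest, with 47 of 56 partnered genes (83.9%) in pairs with a summit and a median signal of 422. Their strongest were RpL7 with Ripalpha (signal 1247 pooled, 665 in replicate 1 and 572 in replicate 2), RpS27 with the nucleoporin gene Nup37 (1238) and RpS28b with l(1)G0320 (1216). The summits of RpL7 and RpS27 lay close to their TSSs, 43 bp inside and 12 bp upstream, in sequence of 56.4% and 49.5% GC, far above the median of the members. The third lay 745 bp upstream of RpS28b and 128 bp upstream of l(1)G0320, at 25.7% GC. RpL5, RpL40 and RpL24-like were among the 9 with a partner and no summit.

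Mitochondrial ribosomal protein genes had 37 of 59 partnered genes (62.7%) in pairs with a summit. Although 4 of the 20 strongest members flank such genes, the median signal of the list was 243, below that of all members. Genes of vesicle traffic had 42 of 74 (56.8%), led by alphaCOP of the COPI coat with CG13919 (signal 2172). Insulator and chromatin architecture factors had 5 of 9, among them Chro, Cp190 with CG4338 (2394) and M1BP with CG8202 (839). Ibf1 and Ibf2, which encode insulator binding factors and are each other's partner, had none.

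Near the level of all genes were aminoacyl-tRNA synthetases with 11 of 23 (47.8%), respiratory chain and ATP synthase genes with 20 of 46 (43.5%), translation initiation factors with 9 of 21 (42.9%), RNA polymerase and general transcription genes with 24 of 56 (42.9%), and DNA replication and repair genes with 16 of 41 (39.0%). Examples are IleRS with Hem (1398), ND-ASHI with Fum1 (1269), Taf5 with Pex6 (1496) and PolD2, a DNA polymerase delta subunit, with CG13933 (3661). Splicing genes had 11 of 32 (34.4%), nuclear pore genes 6 of 18 (33.3%) and proteasome subunits 8 of 26 (30.8%). Rpn3, a lid subunit of the proteasome, shared a summit of signal 1006 with l(2)37Bb, while Prosalpha1 and Prosalpha3 of the core had none. Genes known by a CG number alone had 589 of 1757 (33.5%).

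Against the 36.2% of all protein-coding genes with a divergent partner, the share was 3.85% for homeodomain genes, 5.71% for Cpr cuticle protein genes, 12.5% for DIP and dpr genes and 14.5% for chemosensory receptor genes. Of 78 homeodomain genes 3 had a partner, and 1 of these, ro (rough), was in a pair with a summit, that of T48 and ro with a signal of 169. Of 179 chemosensory receptor genes 26 had a partner and 2 were in a pair with a summit, Gr32a with Idua and Ir60e with CG13585. Among 70 Cpr cuticle protein genes 4 had a partner and 0 were in a pair with a summit. Among 32 DIP and dpr surface proteins of neurons 4 had a partner, and dpr14 and dpr19 were in pairs with summits of 1130 and 746. These counts carry no test, since the lists were chosen with earlier results of these data known.

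The summits marked a trough of GC content. Within 50 bp the median GC content was 29.7% at divergent summits, 31.7% at lone summits and 29.7% elsewhere, against 50.5% in windows of the same length centred 500 bp to 1 side of the divergent summits. In windows of this length centred 101 bp upstream of all annotated protein-coding TSSs the median was 38.6%. The midpoints of the 995 pairs with a summit had a median of 28.7%, and the midpoints of the 1645 pairs without one had 33.7%. A run of 12 or more A and T, a length chosen after the values were seen, occurred within 50 bp of 47.5% of divergent summits (44.4 to 50.6), 39.3% of lone summits (36.9 to 41.8) and 37.9% of summits elsewhere. Such a run occurred at 33.8% of the midpoints of pairs without a summit, in 27.0% of the windows at all annotated promoters and in 8.42% of the windows 500 bp away. Stronger members had lower GC content: the median was 25.7% in the strongest quintile of the members and 35.6% in the weakest. Spearman's rho of signal and GC content was -0.35 over the 1057 divergent summits and -0.38 over the 1582 lone ones, as a description of peaks from the same libraries. Base composition also bears on how reads are recovered in sequencing, and its part in the signal was not tested.

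**Figure D4:**
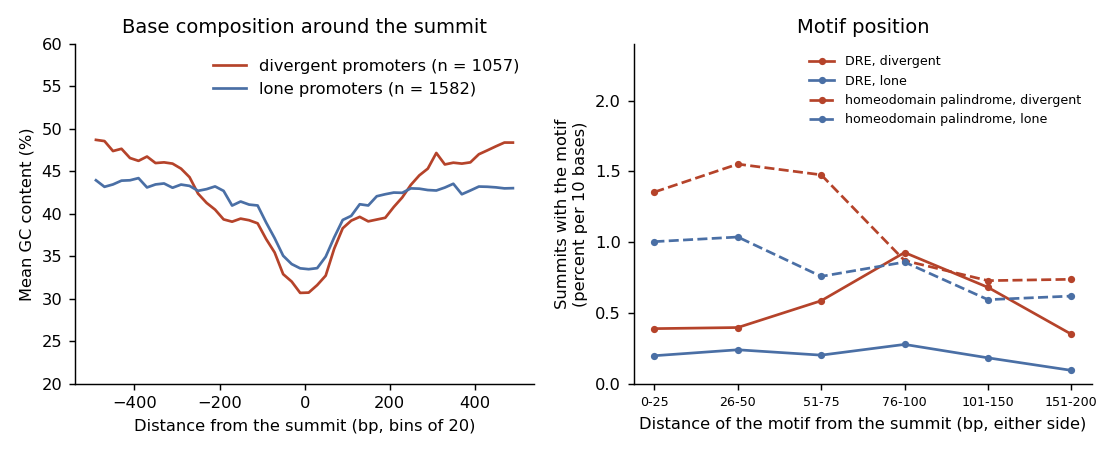
Left, mean GC content in bins of 20 bp by distance from the summit in bp, for divergent and lone promoters. Right, percent of summits with a DRE or the homeodomain palindrome per 10 bases, by distance of the motif from the summit in bp on either side. The GC trough at the summit is deeper at divergent promoters, 30.7% against 33.6% in the bin just before it, and the DRE at divergent promoters is most frequent 76 to 100 bp away.

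Sequence tests set the summits of divergent against those of lone promoters. All 2080 sequences of 6 bases, each merged with its reverse complement, were tested within 50 bp of the summit, and 6 of them (0.288%) were more frequent at divergent summits at an adjusted p under 0.05 (exact Fisher tests with Benjamini-Hochberg adjustment), while 0 were less frequent. At an unadjusted exact p under 0.05 these counts were 81 and 128. All 6 consist of A and T alone, and the one with the smallest p was AAATTA. This was present at 36.0% of divergent and 27.2% of lone summits (adjusted exact p = 0.0021), and in 8.14% of windows 500 bp away. Within the 3963 strongest peaks 0 were called by these tests, against 47 more and 79 less frequent at an unadjusted exact p under 0.05. Without replicate 1 the calls were 19 more frequent and 3 less frequent at divergent summits, and within 100 bp they were 40 more frequent and 37 less frequent.

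Of 16 motifs of promoter and homeodomain factors, 2 (12.5%) were more frequent within 50 bp of divergent summits. The 16 motifs were chosen with earlier results of these data known, and their adjusted p-values do not take this choice into account. CGATA, the site of BEAF-32 and part of the DRE, was present at 222 divergent summits, 21.0% (18.6 to 23.6), and 253 lone ones, 16.0% (14.2 to 17.9; adjusted exact p = 0.0127). TAATTA, a palindromic homeodomain site, was present at 143, 13.5% (11.5 to 15.7), and 151, 9.54% (8.14 to 11.1; adjusted exact p = 0.0127). Neither call held throughout: both were lost within the 3963 strongest peaks, without replicate 2, with the most 5′ TSS of each gene, and with 1 summit per promoter (adjusted exact p = 0.0503 for each), and that of CGATA also without replicate 1 and with summits within 250 bp. The difference for TAATTA was 3.98 percentage points in the main comparison, 4.24 within the 3963 strongest peaks, 3.56 without replicate 2, 3.08 with the most 5′ TSS and 3.75 with 1 summit per promoter. For CGATA it was 5.01 points in the main comparison, 1.48 within the 3963 strongest peaks, 2.73 without replicate 1, 3.72 without replicate 2, 3.12 with summits within 250 bp, 2.01 with the most 5′ TSS and 4.47 with 1 summit per promoter. Fewer summits were tested within the 3963 strongest peaks. TAATTA is also 1 of the 2080 sequences of 6 bases tested in the same windows, and it was not among the 6 called there. As an alternative added after the data were seen, the summits were split into 5 strata by GC content, within which GC content still varied. Over these strata the odds ratio was 1.59 for CGATA and 2.41 for the DRE, both past the threshold. It was 1.25 for TAATTA, which was not (Mantel-Haenszel test with Benjamini-Hochberg adjustment).

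Capitals mark these motifs on either strand in the strongest member that holds each between its TSSs, again from the release 6 genome of RefSeq, so that their place relative to the summit at base 31 can be seen.
CHMP2B/Tcs5 with CGATA, chr3L:5139473-5139533: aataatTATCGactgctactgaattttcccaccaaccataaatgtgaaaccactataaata
CG5611/Mtl with TAATTA, chr3R:27636145-27636205: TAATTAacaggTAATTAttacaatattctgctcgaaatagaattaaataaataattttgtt

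TAATTA was 4.09 times as frequent at divergent summits as 500 bp away, where 3.31% of windows held it. Among the 36 sequences of 6 bases made of A and T alone, this ratio ran from 2.58 to 5.67 with a median of 4.18, and TAATTA took place 22. The homeodomain site thus stood within the range of sequences of like composition. Within 50 bp of a point 101 bp upstream of all annotated protein-coding TSSs, TAATTA was present in 8.26% of windows, against 13.5% at divergent summits. Within 100 bp of the summit TAATTA was present at 22.8% of divergent and 16.2% of lone summits.

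In the wider window of 100 bp either side of the summit, 6 motifs (37.5% of the 16) were more frequent at divergent than at lone summits and 2 (12.5%) less frequent, at an adjusted p under 0.05. The DRE, TATCGATA, was present at 112 divergent summits, 10.6% (8.80 to 12.6), and 68 lone ones, 4.30% (3.35 to 5.42; adjusted exact p = 5.7e-09). The core of promoter motif 7, CANCNCTA, was present at 19.2% and 10.8% (adjusted exact p = 1.4e-08), CGATA at 43.4% and 30.8% (adjusted exact p = 8.9e-10), and the TATA box, TATAAA, at 44.3% and 37.0% (adjusted exact p = 5.9e-04). The GAGA site, GAGAGAG, was present at 14 divergent summits, 1.32%, and 82 lone ones, 5.18% (adjusted exact p = 2.2e-07). Of these 8 calls, those of DRE, CGATA, motif 7, the TATA box, TAATTA and GAGA held in each of 7 other settings, with the highest adjusted exact p at 0.0203, for TAATTA. The core of motif 1, GGTCACAC, the site of M1BP (4.82% and 2.72%), held in 3 of the 7, and the initiator, TCAGTT (10.1% and 13.9%), in 5. With summits within 250 bp the difference fell from 6.30 to 4.54 points for the DRE and from 8.40 to 5.73 for motif 7. For CGATA it fell from 12.6 to 9.77. It did not shrink for the TATA box (7.23 and 8.79), TAATTA (6.56 and 7.72) or GAGA (-3.86 and -3.98). The nearest TSS lay a median of 104 bp from divergent and 185 bp from lone summits, and the part of this distance was not tested. The 100 bp window was an alternative to the main one of 50 bp, and its runs under the other settings were added after the data were seen. Here too the adjusted p-values leave out that the motifs were chosen with earlier results known. None of these settings took GC content into account, and the GC strata were run within 50 bp alone. There the odds ratios of the DRE (2.41) and CGATA (1.59) passed the threshold. Those of motif 7 (1.47), TAATTA (1.25), the TATA box (0.99) and GAGA (0.54) did not.

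**Figure D5:**
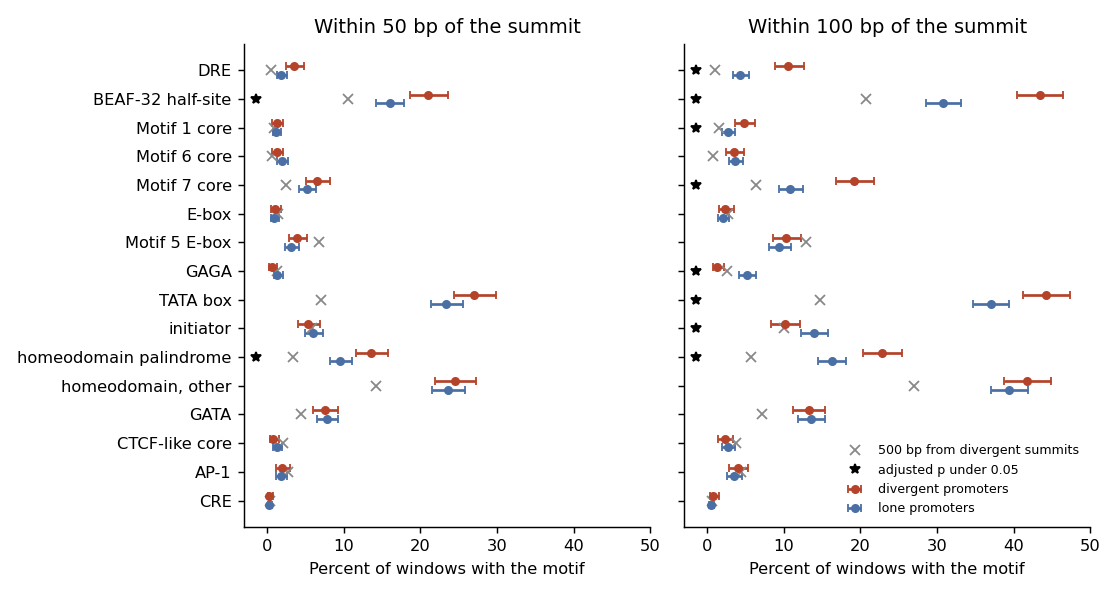
Percent of windows that hold each of 16 motifs, within 50 bp (left) and 100 bp (right) of the summit, at divergent promoters (red) and lone promoters (blue), with exact 95% binomial intervals, and in windows 500 bp from divergent summits (grey crosses). Stars mark an adjusted exact p under 0.05 between divergent and lone summits, 2 motifs on the left and 8 on the right.

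Over all annotated promoters, with or without a summit, the shares of these motifs had the same order. Within 100 bp of a point 101 bp upstream of the TSS, the DRE was present at 11.5% of 6027 divergent and 3.68% of 13240 lone promoter windows, CGATA at 49.4% and 30.7%, motif 7 at 14.2% and 6.71%, and GAGA at 2.89% and 7.72%. The TATA box stood at 37.8% and 31.7%, and TAATTA at 17.7% and 12.4%. The median GC content of these windows was 35.8% at divergent and 40.3% at lone promoters. For these 6 motifs the summits of both classes thus had the order of the promoters themselves, and whether the sizes differ was not tested.

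The DRE and motif 7 were more frequent 76 to 100 bp from the divergent summits than within 25 bp of them. A DRE was centred within 25 bp of 21 of the 1057 summits, which is 0.39% per 10 bases, and 76 to 100 bp away from 49, which is 0.93% per 10 bases. At lone summits the DRE stood between 0.095% and 0.28% per 10 bases in all 6 bins out to 200 bp. Motif 7 was likewise found at 0.56% per 10 bases within 25 bp of divergent summits and at 2.04% at 76 to 100 bp. CGATA had a flatter profile, with 2.23% per 10 bases within 25 bp, 3.77% at 76 to 100 bp and 2.28% at 151 to 200 bp. TAATTA had the other profile, with 1.35%, 1.55% and 1.48% per 10 bases in the 3 bins out to 75 bp and 0.87% at 76 to 100 bp. GC content rises with distance from the summit as well, and these profiles were drawn after the values were seen, with no test. Summits upstream of their nearest TSS lay a median of 108 bp from it at divergent and 194.5 bp at lone promoters. Distance from the summit and distance from the TSS were not separated in these profiles. Divergent summits with CGATA within 50 bp had a median signal of 264, and those without it 384. For TAATTA the medians were 428 with it and 344 without it, and neither difference was tested.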

How the data were processed

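Peak lists of GFP-tagged Bsh from 2 biological replicates were analysed. The authors deposited a list for each replicate, 1 for the pooled replicates and the IDR list made from these 3; all used the same control file, per the deposited text files. Coordinates are on dm6, and sonicated chromatin had a size range of 200 to 800, per the labels. For the aligner, peak caller, settings and IDR cut-off, the sources used here give nothing. The stage comes from the source name, because the age field of the labels cannot be right. The antibody comes from the description in the labels, whose antibody field reads bsh instead. The signal value is a score given by the authors, and the deposited −log10 q-values were not used. The summit offset in bp was also given by the authors.

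Summits were assigned with Ensembl release 115 models of genome release 6, using 19630 protein-coding TSSs of 13968 genes. No filter on low values was applied. A pair was counted once, at its shortest distance. Divergent and lone summits were compared by exact two-sided Fisher tests of signal, 16 motifs and 2080 sequences of 6 bases, with Benjamini-Hochberg adjustment within each family and a threshold of 0.05; the code was tested on simulated data. Intervals are exact binomial at 95%, treat summits as independent and cover counting error only. The members, 17 gene lists, motifs and comparisons were chosen with earlier results of these data known. Pairs named are among the 20 strongest, those with most summits, the shortest and longest distances, 3 per list, those at the limits of the rule and those whose ranks differ most. Alternatives were the 3963 strongest peaks, each replicate alone at 7927 peaks, a partner within 500 bp, a summit within 250 bp, the most 5′ TSS, 1 summit per promoter, 100 bp windows, stricter overlaps and GC strata. Python 3.11.15, numpy 2.4.6, pandas 2.3.3, scipy 1.17.1, statsmodels 0.14.6 and matplotlib 3.10.9 were used.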

Additional observations from a re-analysis of the deposited data

How the results depend on the processing

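Of 303 values computed under alternatives, 249 kept their side of the threshold or stayed within their interval or 1.5 times of their count. A change of sign where neither value passed the threshold counted as kept. An example is motif 7, at 1.34 points in the main comparison and -0.30 with summits within 250 bp. Apart from single motifs and gene lists, 35 of 57 values were kept, 20 moved beyond these limits, 1 weakened and 1 reversed. Within the 3963 strongest IDR peaks there were 593 divergent summits, 42.4% of promoter summits, at 21.9% of pairs, 82.6% of them between the TSSs. There the signal difference turned to -5.74 percentage points, and 0 motifs and 0 sequences of 6 bases were called within 50 bp by Fisher tests, against 1 higher motif, 47 higher and 79 lower sequences at an unadjusted p under 0.05; fewer summits were tested. Leaving out 1 replicate, the signal difference ran from 3.63 to 6.15 points, the motifs called from 0 to 3 and the sequences from 9 (all higher, without replicate 2) to 22 (19 higher, 3 lower). With a partner within 500 bp, divergent summits were 29.9% of promoter summits and 35 sequences were called, 26 higher and 9 lower. With summits within 250 bp these values were 49.7% and 40 (22 higher, 18 lower), and with the most 5′ TSS the share was 44.9%, 74.6% lay between the TSSs and 0 motifs were called. With 1 summit per promoter 0 motifs were called as well (at an unadjusted p under 0.05, 4 motifs, and 3 each with the most 5′ TSS and without replicate 2), and within 100 bp 8 motifs (6 higher, 2 lower) and 77 sequences (40 higher, 37 lower) were. The count within 100 bp ran from 6 to 8 under the other settings. Support in both replicates was 79.8% with 50% of both peaks overlapping and 86.4% with the strongest replicate peaks. The cause of these changes was not tested. No paired analysis was possible because the replicates belong to 1 group. Depth is unknown, so it cannot be said which pairs lack a summit for want of reads.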
